A study of Mus musculus with 12 samples.

Results

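The comparison described here is that of lung ILC2s activated by IL-33 in mice with and without *Sema6d*, across all genes that these cells measurably expressed. Its members were the 3 libraries of *Sema6d*-/- mice given IL-33 and the 3 libraries of WT mice given IL-33, as the sample labels assign them, which are 6 of the 12 libraries in the series. The other 6 libraries were of mice of the same genotypes given PBS, and they are used only for comparison. Of 24346 gene symbols, the 9142 with a mean of at least 2 FPKM over the 6 IL-33 libraries were tested. FPKM give the fragments of a gene scaled for the length of its transcripts and for the number mapped in the library.

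Group 2 innate lymphoid cells (ILC2s) are tissue-resident lymphocytes without antigen receptors that secrete IL-5 and IL-13 when epithelial alarmins such as IL-33 reach them. Semaphorin 6D is a transmembrane protein first known from axon guidance, and it acts on neighbouring cells through class A plexins and can also signal back into the cell that carries it. IL-33 binds the receptor ST2 on ILC2s and signals through MyD88 to NF-kB and MAP kinases.

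The WT mice were C57BL/6 mice by the labels, C57BL/6J in the study's methods, and the *Sema6d*-/- mice, which carry the deletion in every cell of the body, are described as being on the same background. All were young adults and were given IL-33, or PBS as the vehicle, intranasally for 3 days. The labels give the IL-33 dose as 50 ng, and the study's methods give a higher one. Lung ILC2s were sorted as CD45+ Lin- Thy1.2+ ST2+ cells and their RNA was sequenced. Among the lineage (Lin) antibodies that the methods list for ILC2s are those to F4/80 of macrophages and to CD11c of dendritic cells, so the gate removes cells that stain for them. Because *Sema6d* was missing from the whole animal, the ILC2s had also developed and been activated in tissue without it. How many mice contributed to each library is not given in the sources used here, so p-values measure the spread between these libraries.

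In the 6 libraries, the genes above 1 FPKM numbered 9920, 9975 and 9917 for WT and 10081, 10075 and 10042 for *Sema6d*-/-, without overlap. The sum of all FPKM values was 763327 to 779976 in the WT and 724236 to 732926 in the *Sema6d*-/- libraries, also without overlap. The part of these differences in the results was not tested. FPKM carry no read totals, but in weakly expressed genes many values of a library are multiples of what a single read is worth. Read in this way, with WT replicate 3 set to 1, relative depth was 1.39, 1.10 and 1 for WT and 1.12, 0.968 and 1.06 for *Sema6d*-/- libraries. These estimates rest on the most frequent ratio to WT replicate 3. In the other IL-33 libraries, 5.96% to 8.33% of the weakly expressed genes were at it. Across the tested genes, Pearson's r on the log2(FPKM + 1) scale was 0.921 to 0.938 between WT replicates and 0.915 to 0.922 between *Sema6d*-/- replicates. Between the genotypes it was 0.909 to 0.927, so that libraries of different genotype were about as alike as replicates, and genes are not independent replicates in this measure. *Xist*, transcribed from the inactive X chromosome, was at 16.1 to 22.1 FPKM in the 6 libraries.

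The cells expressed genes of ILC2s in both genotypes. *Id2*, a regulator that all innate lymphoid cells need, was at 2346, 2753 and 3136 FPKM in WT and 3001, 3238 and 3211 FPKM in *Sema6d*-/- libraries. These ranges overlapped. Of the 28 genes listed for ILC2 identity and the sorting gate, 26 were tested and 0 were called, and their median log2 fold change was 0.09. In 4 of the 26 (15.4%, against 6.99% of all tested genes, as given below) the groups were without overlap and higher, and in 3 (11.5%, against 8.19%) lower. *Il2ra*, the alpha chain of the IL-2 receptor, was at 19.0, 27.7 and 25.6 FPKM in WT and 47.5, 29.4 and 35.3 FPKM in *Sema6d*-/- libraries, and *Il9r* and *Crlf2*, cytokine receptor chains, were among the lower ones. *Tcf7*, a transcription factor needed for ILC2 development, was at 48.7, 57.6 and 56.8 FPKM in WT and 74.0, 70.3 and 85.0 FPKM in *Sema6d*-/- libraries. Its groups did not overlap, and it did not pass the threshold (adjusted p = 0.389, limma).

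*Sema6d* itself (chromosome 2, 124089969 to 124667770 on GRCm38) was still detected in the *Sema6d*-/- libraries. In WT it was at 19.7, 35.5 and 28.7 FPKM, and in *Sema6d*-/- ILC2s at 15.4, 13.6 and 13.8 FPKM. All WT libraries were therefore higher (exact permutation test, two-sided p = 0.10, which is the least that so few libraries can give). Its log2 fold change was −0.89 (standard error 0.24) and did not pass the threshold over all tested genes (adjusted p = 0.321, limma). A value per gene does not show whether the reads came from the deleted part. Among the possible receptors of the ligand, *Plxna1*, which encodes plexin-A1, was at 7.56, 9.12 and 5.03 FPKM in WT and 3.49, 8.13 and 7.24 FPKM in *Sema6d*-/- ILC2s, with overlap. *Plxna4* was listed at 0 in each of the 6 libraries. Of 32 semaphorin and plexin genes and their partners, 12 were tested and 0 were called.

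With limma on log2(FPKM + 1) and Benjamini-Hochberg adjustment, 16 of the 9142 genes (0.175%) had an adjusted p under 0.05 between the genotypes, 10 of them higher and 6 lower in *Sema6d*-/- ILC2s. These are called genes in what follows. A gene with a mean under 2 FPKM in either genotype passed the filter through the other one, so its direction is no finding. At an unadjusted p under 0.05 there were 848 genes (9.28%), 361 higher and 487 lower. The groups did not overlap with *Sema6d*-/- higher in 639 genes (6.99%) and with *Sema6d*-/- lower in 749 genes (8.19%). The log2 fold change was below 0 in 4574 of the tested genes (50.0%). Adding 1 to each FPKM makes differences in weakly expressed genes look smaller than their ratios. In bulk RNA of sorted cells, fewer cells of a type and less RNA per cell cannot be told apart.

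Some of the called genes that fell are among the abundant transcripts of these cells. *Sh3bgrl3*, which encodes a small thioredoxin-fold protein, was at 3981, 4196 and 4316 FPKM in WT and 2123, 2099 and 2171 FPKM in *Sema6d*-/- ILC2s. *Cd52*, a short lipid-anchored glycoprotein on the surface of lymphocytes, was at 8198, 7742 and 8674 FPKM in WT and 4260.0, 4127 and 4859 FPKM in *Sema6d*-/- libraries. *Laptm5*, a lysosomal membrane protein of blood cells, was at 1298, 1273 and 1293 FPKM in WT and 741, 620.2 and 849 FPKM in *Sema6d*-/- libraries. In each of them, the lowest WT library was far above the highest *Sema6d*-/- library, and the replicates lay close together. The log2 fold change was −0.97 for *Sh3bgrl3* (standard error 0.06, adjusted p = 0.00115, limma), −0.90 for *Cd52* (standard error 0.08, adjusted p = 0.00664) and −0.82 for *Laptm5* (standard error 0.11, adjusted p = 0.0456). *Sh3bgrl3* shares exon sequence with *Ubxn11* on the opposite strand. *Ubxn11* was at 42.3, 39.2 and 35.2 FPKM in WT and 45.6, 43.5 and 64.3 FPKM in *Sema6d*-/- libraries, much less than *Sh3bgrl3*. Exons of *Cd52* overlap those of *Crybg2* on the other strand. The sources differ on the library kit, so whether reads were assigned by strand is uncertain.

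*Apobec3* and *Cbx7* fell further. *Apobec3*, a cytidine deaminase that restricts retroviruses, was at 72.4, 84.5 and 77.9 FPKM in WT and 7.73, 2.86 and 10.3 FPKM in *Sema6d*-/- ILC2s, so that the means differed 11.2-fold (−3.45 on the log2 scale, standard error 0.36, adjusted p = 0.0118, limma). *Cbx7*, a chromobox protein of Polycomb repressive complexes, was at 20.6, 16.1 and 13.1 FPKM in WT and 0.651, 1.69 and 1.12 FPKM in *Sema6d*-/- ILC2s (−3.04 on the log2 scale, standard error 0.31, adjusted p = 0.0118, limma). No *Sema6d*-/- library came near a WT library in either gene. *Cbx7* had a *Sema6d*-/- mean of 1.15 FPKM and passed the filter through the WT libraries, so its direction is no finding. The genes lie end to end on opposite strands of chromosome 15, *Apobec3* from 79891659 to 79915906 and *Cbx7* from 79915807 to 79971119 (GRCm38), and their last exons overlap, so without strand some reads could belong to either. *Bcl2a1b*, a copy of the A1 gene that protects blood cells from apoptosis, was at 121, 159 and 156 FPKM in WT and 47.0, 71.3 and 58.8 FPKM in *Sema6d*-/- libraries (−1.30 on the log2 scale, standard error 0.19, adjusted p = 0.0498, limma). The copies of A1 are nearly identical, and how reads were split between them is uncertain. Exons of *Bcl2a1b* also overlap those of *Gm29094* on the same strand. *Bcl2a1d*, which was not called, was at 156, 178 and 191 FPKM in WT and 92.5, 127 and 100.5 FPKM in *Sema6d*-/- libraries, also without overlap.

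*H2-Ab1*, the most abundant of the genes that rose, is described with its pathway below. *Cap1*, *Emp1* and *Dhrs3* came next in level. *Cap1*, a protein that binds actin monomers and speeds the turnover of filaments, was at 28.4, 25.3 and 23.7 FPKM in WT and 87.0, 76.5 and 97.8 FPKM in *Sema6d*-/- ILC2s. *Emp1*, a membrane protein with several membrane-spanning segments, was at 11.6, 12.6 and 15.8 FPKM in WT and 47.7, 50.0 and 40.7 FPKM in *Sema6d*-/- ILC2s. *Dhrs3*, an enzyme that reduces retinal to retinol and so limits the synthesis of retinoic acid, was at 4.92, 6.42 and 10.04 FPKM in WT and 86.1, 51.5 and 118 FPKM in *Sema6d*-/- ILC2s. All *Sema6d*-/- libraries were well above all WT libraries in these genes, by the most in *Dhrs3*. The log2 fold change was 1.71 for *Cap1* (standard error 0.16, adjusted p = 0.00993, limma), 1.73 for *Emp1* (standard error 0.19, adjusted p = 0.015) and 3.38 for *Dhrs3* (standard error 0.34, adjusted p = 0.0118). Exons of *Cap1* overlap those of *Ppt1* on the other strand.

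The other genes that rose were at low levels in WT. Apart from *Eps8*, each had a WT mean under 2 FPKM and passed the filter through the *Sema6d*-/- libraries. They therefore had to be higher there, and their direction is no finding. *Dennd3*, an exchange factor for Rab GTPases, was at 1.74, 1.75 and 1.18 FPKM in WT and 14.7, 10.3 and 14.2 FPKM in *Sema6d*-/- libraries (2.46 on the log2 scale, adjusted p = 0.0192, limma). *Eps8*, which caps actin filaments, was at 3.12, 2.24 and 0.947 FPKM in WT and 16.6, 12.7 and 15.9 FPKM in *Sema6d*-/- libraries (2.43 on the log2 scale, adjusted p = 0.0456). *H60b*, a ligand of the NK cell receptor NKG2D, was at 0.355, 0 and 1.64 FPKM in WT and 14.8, 11.2 and 16.3 FPKM in *Sema6d*-/- libraries (3.29 on the log2 scale, adjusted p = 0.0308). In these genes too the *Sema6d*-/- replicates agree within a narrow range. Exons of *H60b* overlap those of *Raet1e* on the same strand. *Sqrdl*, the mitochondrial enzyme that oxidises hydrogen sulfide, was listed at 0 in the 3 WT libraries and was at 4.34, 15.5 and 13.3 FPKM in *Sema6d*-/- libraries (3.43 on the log2 scale, adjusted p = 0.0456). *Gm15987*, annotated as an antisense transcript, was also listed at 0 in the 3 WT libraries and was at 8.87, 11.4 and 4.5 FPKM in *Sema6d*-/- libraries (3.13 on the log2 scale, adjusted p = 0.0456). *Amd2*, a copy of the polyamine enzyme gene *Amd1*, was at 0.28 FPKM at most in WT, against 10.4, 5.46 and 20.7 FPKM in *Sema6d*-/- libraries (3.42 on the log2 scale, adjusted p = 0.0456). Its call is uncertain, since the *Sema6d*-/- library with 20.7 FPKM of *Amd2* had 0.378 FPKM of *Amd1*, against 15.9 to 29.7 FPKM of *Amd1* in the other 5 IL-33 libraries.

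The number of calls depended on the fit. Each of the 16 genes kept its direction in each of up to 18 alternatives in which it was tested. Their groups did not overlap, so leaving out a library could not have reversed a direction, and this does not measure stability. *Sh3bgrl3* kept its call in 15 of 18 alternatives and *Sqrdl* in 3 of 17. Without WT replicate 1 or 2 there were 2 called genes, without *Sema6d*-/- replicate 1 there were 4, without *Sema6d*-/- replicate 2 there were 10, and with all 12 libraries in the model there was 1. With limma's eBayes without its trend, 0 genes were called and 744 had an unadjusted p under 0.05.

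**Figure D1:**
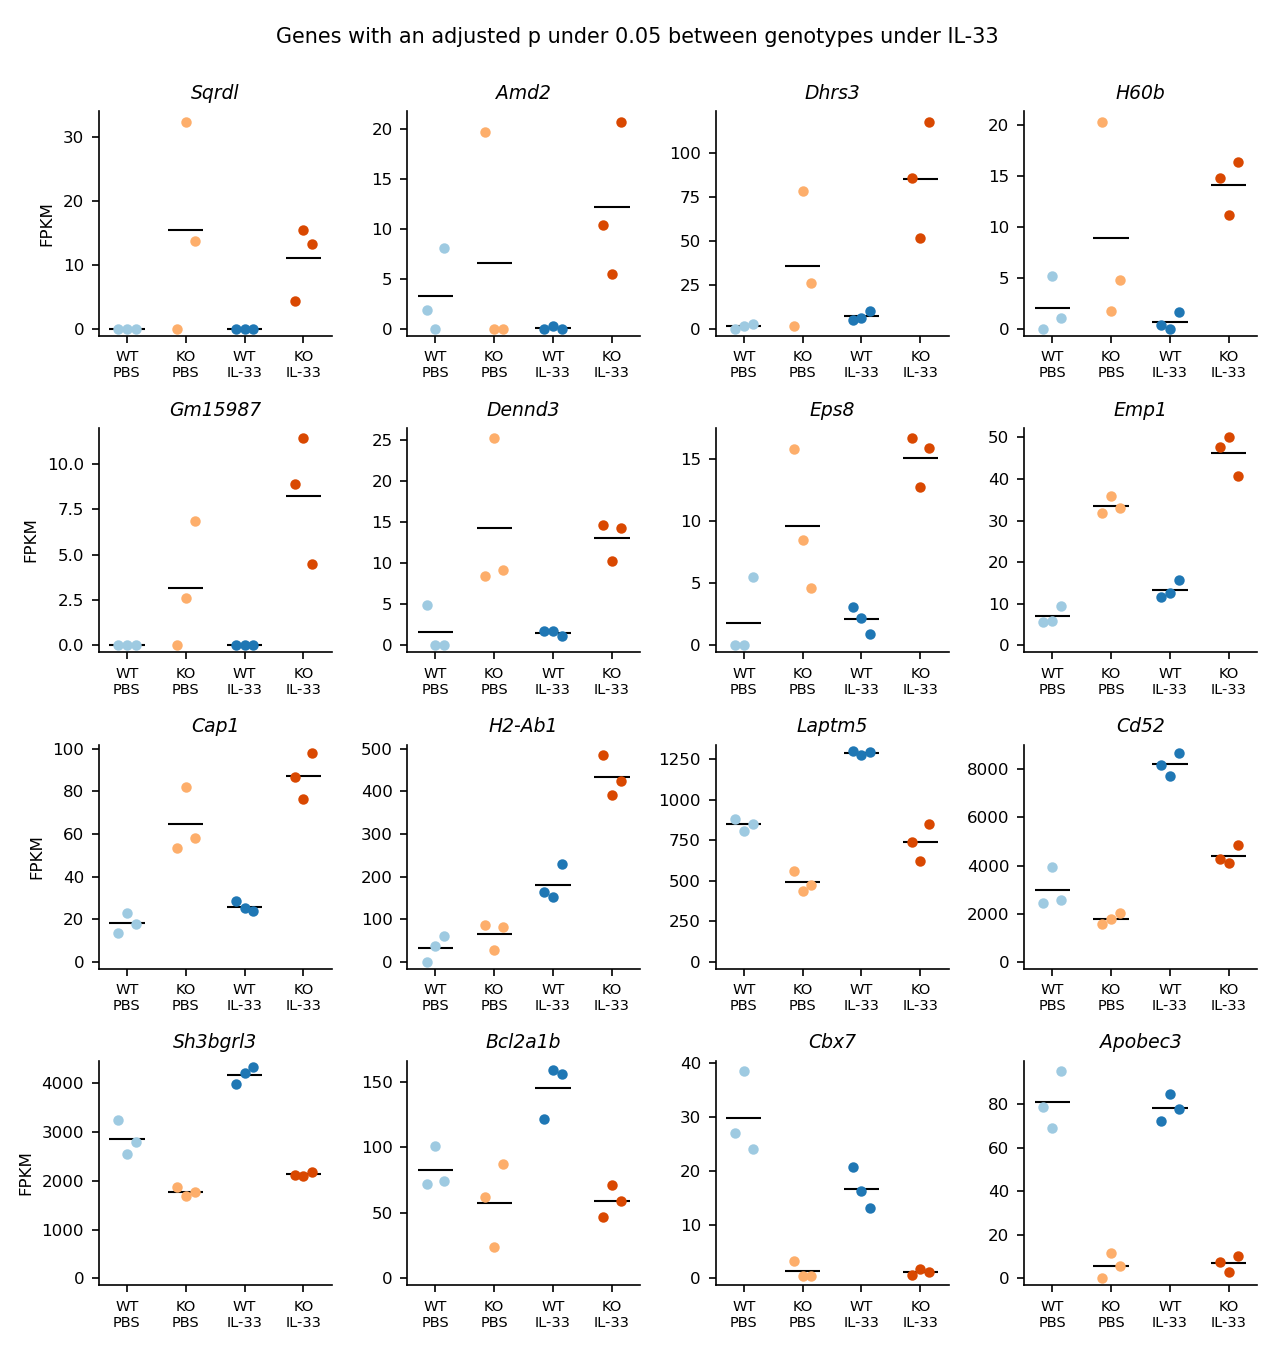
FPKM of the 16 called genes in each library (points; bars, means of 3 libraries) for WT and *Sema6d*-/- (KO) mice given PBS or IL-33, ordered by log2 fold change under IL-33, with a linear axis from 0 for each gene. Under IL-33 the genotypes do not overlap in any of the 16 genes, and under PBS they are apart in the same direction in 8, among them *Apobec3*, *Cbx7*, *Cap1* and *Emp1*.

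The PBS libraries, which took no part in choosing these genes, show where the same differences were present in resting ILC2s. This comparison was added after the results under IL-33 were seen. Of the 16 called genes, 15 had means on the same side under PBS, and in 8 (50.0%) the PBS groups did not overlap in that direction, against 481 of the 9142 tested genes (5.26%). Of the 220 genes with an unadjusted p under 0.01 under IL-33 that were not called, 20 (9.09%) were without overlap in the same direction under PBS. An unadjusted p under 0.05 in the PBS fit, with the same direction, was found for 9 of the 16 and for 2.66% of all tested genes. *Apobec3* was at 78.6, 69.3 and 95.1 FPKM in WT and 0, 11.5 and 5.76 FPKM in *Sema6d*-/- PBS libraries. *Cbx7* was at 27.0, 38.4 and 24.0 FPKM in WT and 3.19, 0.477 and 0.547 FPKM in *Sema6d*-/- PBS libraries. *Cap1* was at 13.5, 23.1 and 17.7 FPKM in WT and 53.3, 82.0 and 58.4 FPKM in *Sema6d*-/- PBS libraries. So these genes were apart between the genotypes without IL-33 as well. *Sh3bgrl3*, *Cd52*, *Laptm5*, *Emp1* and *Dennd3* were likewise without overlap under PBS. *Amd2*, *H60b*, *H2-Ab1*, *Bcl2a1b*, *Dhrs3*, *Eps8*, *Sqrdl* and *Gm15987* overlapped there. Between PBS and IL-33 the difference of the genotypes was itself different, by the interaction term, in 3 of the 9142 genes (0.0328%) and in 0 of the 16 (lowest adjusted p = 0.853, limma), which does not show that the differences were equal. PBS libraries were noisier, with a median SD of a gene of 0.64 in WT and 0.68 in *Sema6d*-/- libraries on the log2(FPKM + 1) scale, against 0.28 and 0.26 under IL-33.

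Many of the called genes shared a chromosome with others. Positions on GRCm38 were found for 9124 of the tested genes. Chromosome 4, with 559 (6.13%) of these genes, held 5 called genes, *Cap1*, *Laptm5*, *Cd52*, *Sh3bgrl3* and *Dhrs3*, all between 122859047 and 144928209. Chromosome 6, with 431 (4.72%), held *Gm15987*, *Emp1* and *Eps8* between 128951204 and 137654876. Chromosome 15, with 360 (3.95%), held *Dennd3*, *Apobec3* and *Cbx7* between 73512560 and 79971119. *Sqrdl* lies on chromosome 2 (721 tested genes, 7.90%) from 122765327 to 122809553, on the same chromosome as *Sema6d* and close to it. Of the other called genes, *H60b* and *Amd2* are on chromosome 10 (449 tested genes, 4.92%), *H2-Ab1* on chromosome 17 (492, 5.39%) and *Bcl2a1b* on chromosome 9 (523, 5.73%). On chromosome 4, *Laptm5*, *Cd52* and *Sh3bgrl3* fell, and *Cap1* and *Dhrs3* to either side of them rose. On chromosome 15, the adjoining *Apobec3* and *Cbx7* fell and *Dennd3* rose. The 3 called genes on chromosome 6 all rose, as did the 2 on chromosome 10.

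Windows of 20 Mb, drawn after the called genes were seen, count further genes around them. An unadjusted p under 0.01 was found for 236 tested genes (2.58%). Among the 81 windows with at least 50 tested genes, the median share of such genes was 1.78%. Called genes have such a p by definition, so the shares around them are given without them. The window from 120 to 140 Mb on chromosome 6 held 8 such genes among 78 uncalled tested genes (10.3%), and the window from 120 to 140 Mb on chromosome 2 held 9 among 101 (8.91%), *Sema6d* being 1 of them. From 120 to 140 Mb on chromosome 4 there were 8 among 155 (5.16%), and from 60 to 80 Mb on chromosome 15 there were 4 among 103 (3.88%). In the other windows with a called gene there were 14 among 261 (5.36%) around *H2-Ab1* on chromosome 17, 3 among 106 (2.83%) around *Dhrs3* on chromosome 4, 1 among 36 (2.78%) around *H60b* and *Amd2* on chromosome 10 and 1 among 46 (2.17%) around *Bcl2a1b* on chromosome 9. Of the 81, windows without a called gene reached 6.25%, on chromosome 7 from 40 to 60 Mb, so only the windows on chromosomes 6 and 2 had larger shares than these. The labels name the same strain for all mice, and the sequence of the mice at these positions was not analysed here, so its part in the differences was not tested.

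**Figure D2:**
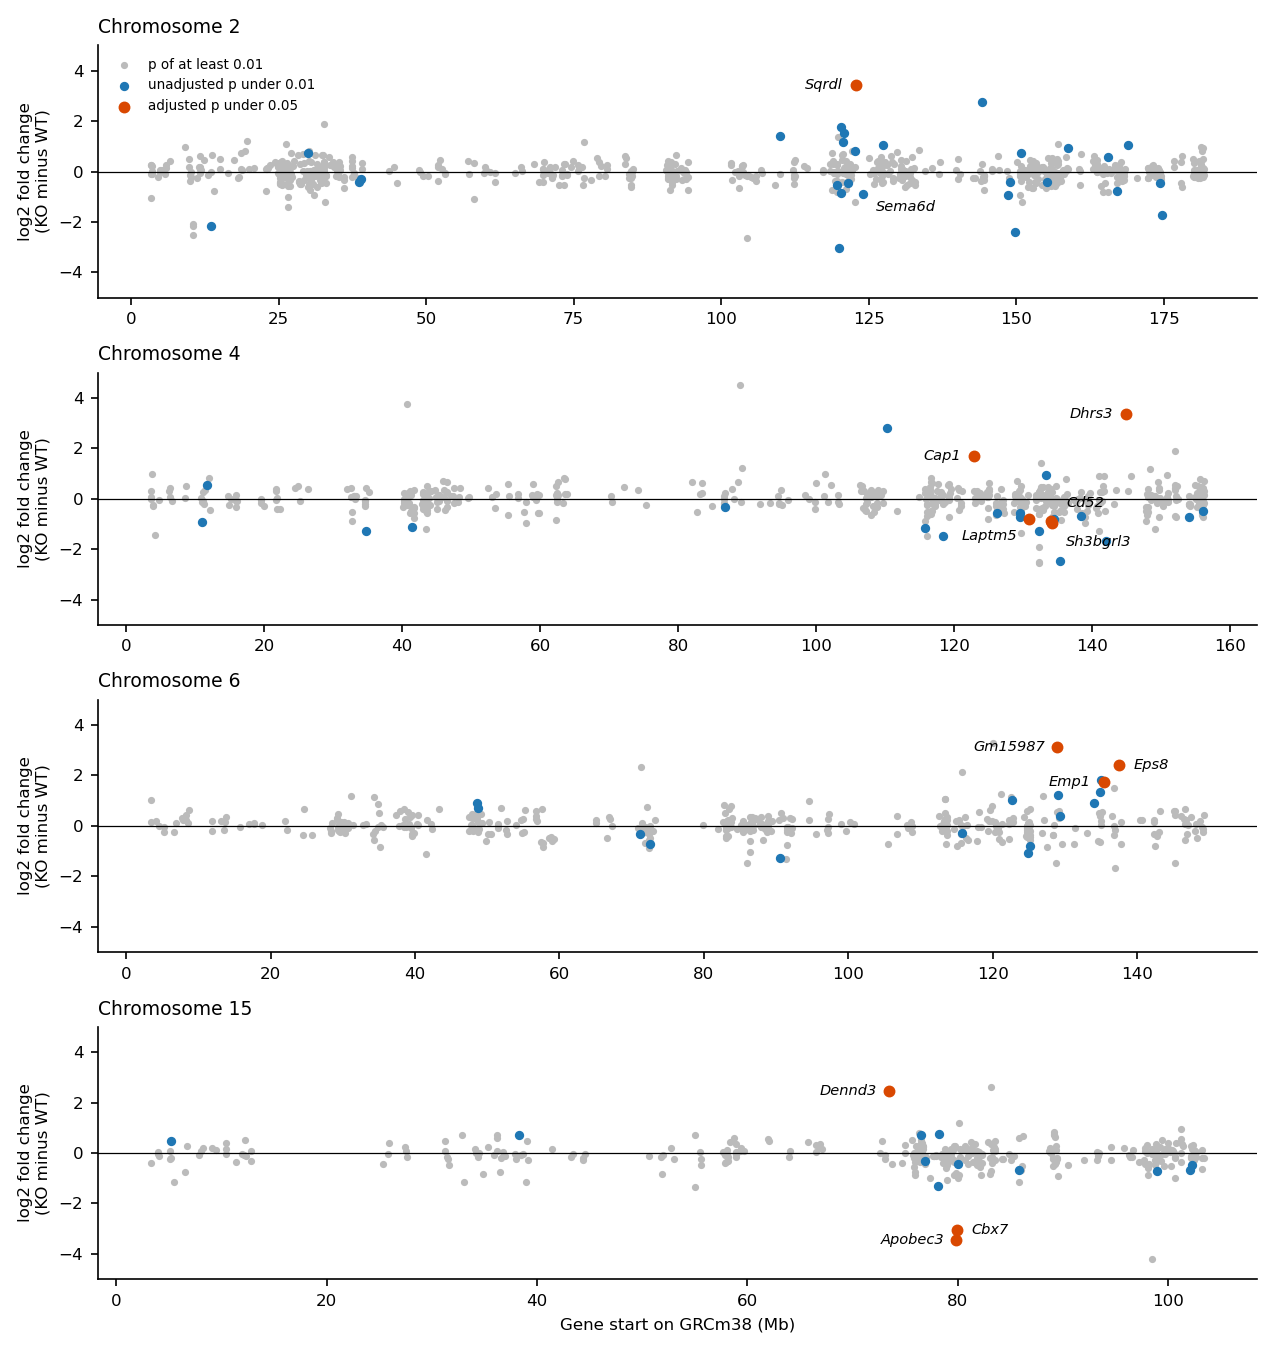
Log2 fold change under IL-33 (*Sema6d*-/- minus WT, on log2(FPKM + 1)) of each tested gene against its start in Mb on GRCm38, for chromosomes 2, 4, 6 and 15. Called genes are orange and named, genes with an unadjusted p under 0.01 are blue, and *Sema6d* is marked by its name. Chromosome 4 holds 5 called genes, chromosomes 6 and 15 hold 3 each, and chromosome 2 holds 1.

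The neighbourhood of *Sema6d* was described by a window of 5 Mb to either side. It held 77 other tested genes, of which 1 was called, *Sqrdl*, and 10 (13.0%, against 2.58% of all tested genes), with *Sqrdl* among them, had an unadjusted p under 0.01. The groups did not overlap with *Sema6d*-/- higher in 12 (15.6%) and lower in 8 (10.4%), against 6.99% and 8.19% of all tested genes. Their median log2 fold change was 0.0076, and the median of its absolute value was 0.31, against 0.22 over all tested genes. The window of 10 Mb held 119 genes and the same 10 genes (8.40%) with an unadjusted p under 0.01. *Tmem87a*, a membrane protein of the Golgi, was at 9.24, 4.62 and 7.06 FPKM in WT and 24.8, 29.1 and 22.8 FPKM in *Sema6d*-/- ILC2s, just outside the threshold (adjusted p = 0.0548, limma). *Snap23*, a SNARE protein of regulated secretion, was at 32.7, 43.4 and 30.7 FPKM in WT and 74.2, 81.4 and 89.4 FPKM in *Sema6d*-/- ILC2s (adjusted p = 0.0548). *Ttbk2*, a kinase of cilium assembly, was at 0.919, 0.249 and 0.788 FPKM in WT and 3.3, 3.41 and 4.54 FPKM in *Sema6d*-/- ILC2s (adjusted p = 0.312). All 3 were without overlap under IL-33, higher in *Sema6d*-/- ILC2s, and *Ttbk2* was so under PBS as well. *Ttbk2* had a WT mean under 2 FPKM and passed the filter through the *Sema6d*-/- libraries, so its direction under IL-33 is no finding.

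Other genes of the neighbourhood went in either direction. *Jmjd7*, a lysyl hydroxylase, was at 11.5, 9.01 and 3.27 FPKM in WT and was listed at 0 in the 3 *Sema6d*-/- libraries (adjusted p = 0.0812, limma), and it shares exons with *Gm28042*. *Jmjd7* passed the filter through the WT libraries, so its direction is no finding. *Vps39*, a subunit of a complex that tethers lysosomes, was at 16.1, 11.98 and 14.1 FPKM in WT and 9.76, 5.86 and 6.72 FPKM in *Sema6d*-/- libraries (adjusted p = 0.38). *AA467197* (chromosome 2, 122636986 to 122641191) was at 103, 77.7 and 81.8 FPKM in WT and 130.0, 208 and 133 FPKM in *Sema6d*-/- libraries under IL-33, without overlap. Under PBS its values were further apart, at 37.5, 0 and 0 FPKM in WT and 191, 173 and 176 FPKM in *Sema6d*-/- libraries.

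Each direction was filled up to 12 genes by the largest fold changes among uncalled genes with an unadjusted p under 0.01 and no overlap. On the lower side these were *Jmjd7*, described above, and *Ncmap*, *Syndig1*, *Mc5r*, *Rab6b* and *Trdmt1*, and on the higher side *Lyz2*, described below, and the microRNA gene *Mir8100*, whose FPKM is uncertain because its transcript is so short. *Trdmt1*, a methyltransferase of transfer RNA, was at 5.35, 5.49 and 6.79 FPKM in WT and 1.21, 0.468 and 0.143 FPKM in *Sema6d*-/- libraries (adjusted p = 0.151, limma). Under PBS, too, its groups were without overlap and lower in *Sema6d*-/- libraries. *Rab6b*, a GTPase of Golgi transport, was at 4.93, 7.93 and 3.32 FPKM in WT and 0, 0.865 and 0 FPKM in *Sema6d*-/- libraries (adjusted p = 0.177). *Syndig1*, a membrane protein known from synapses, was at 7.13, 4.39 and 2.45 FPKM in WT and was listed at 0 in the 3 *Sema6d*-/- libraries (adjusted p = 0.17). *Ncmap* was at 11.2, 9.21 and 10.4 FPKM in WT and 0, 1.93 and 1.94 FPKM in *Sema6d*-/- libraries (adjusted p = 0.152). None of these passed the threshold. *Trdmt1*, *Rab6b*, *Syndig1* and *Ncmap* had *Sema6d*-/- means under 2 FPKM and passed the filter through the WT libraries, so their direction is no finding.

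Of the genes of MHC class II, *H2-Ab1* was called, some others were without overlap and the rest overlapped. The products of *H2-Aa*, *H2-Ab1* and *H2-Eb1* are chains of the molecules that present peptides to CD4+ T cells, *Cd74* encodes the invariant chain that guides them, and *H2-DMb2* encodes a chain of the peptide exchange factor. *H2-Ab1* rose, from 164, 152 and 229 FPKM in WT to 486, 390.3 and 425 FPKM in *Sema6d*-/- ILC2s (1.27 on the log2 scale, standard error 0.17, adjusted p = 0.0384, limma). *H2-Aa* was at 67.6, 80.5 and 225 FPKM in WT and 291, 280.0 and 324 FPKM in *Sema6d*-/- libraries (adjusted p = 0.312). *H2-Eb1* was at 44.1, 46.4 and 88.3 FPKM in WT and 129, 111 and 175 FPKM in *Sema6d*-/- libraries (adjusted p = 0.23). WT replicate 3 was the highest of the WT libraries in these genes and still below every *Sema6d*-/- library. *H2-DMb2* was at 4.25, 3.46 and 2.11 FPKM in WT and 14.9, 8.96 and 12.8 FPKM in *Sema6d*-/- libraries (adjusted p = 0.17), and *Cd74*, *H2-DMa*, *H2-DMb1*, *H2-Oa* and *H2-Ob* overlapped. Of the 17 genes in the list, which also holds class I genes, 16 were tested, 13 had a log2 fold change above 0, 4 (25.0%, against 6.99% of all tested genes) were without overlap and higher, 0 were without overlap and lower, and 1 was called. The median log2 fold change was 0.21, against −0.00038 over all tested genes. *H2-Aa* passed the threshold without WT replicate 3, while *H2-Ab1* kept its call in 7 of 18 alternatives. *Ciita*, the gene of the class II transactivator, was at 0.896 FPKM at most in WT and 1.03 FPKM at most in *Sema6d*-/- libraries and was not tested.

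Macrophages and dendritic cells express far more MHC class II than ILC2s, so their markers are given here. Of 24 macrophage markers, 5 were tested and 0 were called. Each of the 5 had a WT mean under 2 FPKM and passed the filter through the *Sema6d*-/- libraries, so they had to be higher there, and their direction is no finding. *Lyz2*, the lysozyme of macrophages, was at 0.724, 3.93 and 0.72 FPKM in WT and 5.4, 22.2 and 57.9 FPKM in *Sema6d*-/- libraries. *Chil3*, the most abundant marker, was at 4.29, 1.67 and 0 FPKM in WT and 0, 394 and 83.1 FPKM in *Sema6d*-/- libraries. The summed level of the 24 markers was 6.91, 10.4 and 2.21 FPKM in WT and 13.4, 449 and 154 FPKM in *Sema6d*-/- libraries. The sum was higher in every *Sema6d*-/- library than in any WT library, and by far the most in replicate 2. *Cd68*, a lysosomal protein of macrophages, was at 1.15, 0 and 0 FPKM in WT and 4.87, 4.15 and 2.1 FPKM in *Sema6d*-/- libraries, with no overlap. Among the *Sema6d*-/- libraries, the marker sum was lowest in replicate 1, *H2-Ab1* was highest in replicate 1, and *H2-Aa* and *H2-Eb1* were highest in replicate 3. The part of macrophages in the class II values was not tested. Of the 24 markers, 6 were listed at 0 in all 6 libraries, among them *Mertk*, *Marco*, *Fcgr1* and *Cd163*, which mark tissue macrophages. Others were not tested but detected. *C1qb* was at 0.206, 0 and 0 FPKM in WT and 0.128, 5.47 and 2.3 FPKM in *Sema6d*-/- libraries. *Ctsk* reached 2.77 FPKM in *Sema6d*-/- replicate 3 and *Atp6v0d2* 2.75 FPKM in *Sema6d*-/- replicate 2. *Mrc1*, *Csf1r* and *Fabp4* were highest in a WT library, at 0.282 FPKM at most. Of 13 markers of dendritic cells and monocytes, 4 were tested and 0 were called. *Zbtb46*, a transcription factor of classical dendritic cells, was at 2.49, 7.84 and 8.18 FPKM in WT and 10.5, 10.5 and 10.7 FPKM in *Sema6d*-/- libraries, and *Clec9a* was listed at 0 in all 6. *Ccr2*, the most abundant of these markers, overlapped between the groups.

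**Figure D3:**
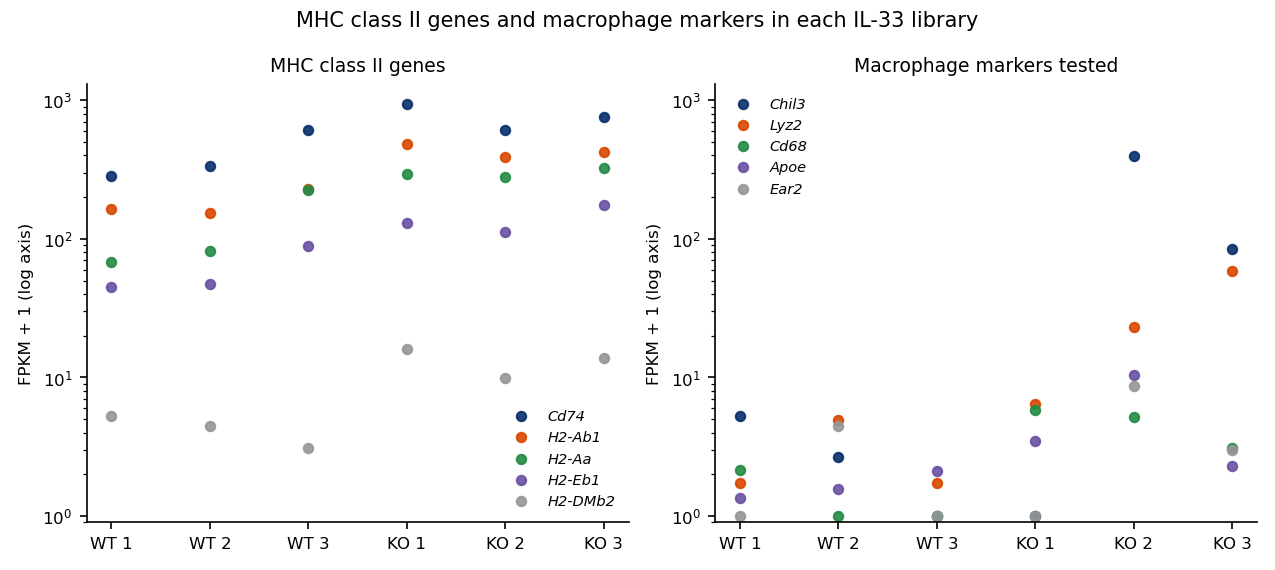
FPKM + 1 on a log axis of 5 genes of the MHC class II pathway (left) and the 5 tested macrophage markers (right) in each IL-33 library of WT and *Sema6d*-/- (KO) mice; each point is a library. *H2-Ab1*, *H2-Aa*, *H2-Eb1* and *H2-DMb2* are above the WT libraries in all 3 *Sema6d*-/- libraries. So are *Lyz2*, *Cd68* and *Apoe*, but the macrophage markers passed the filter only through the *Sema6d*-/- libraries, so their direction is no finding. *Chil3* is high in *Sema6d*-/- replicates 2 and 3 and listed at 0 in replicate 1.

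Promoters of MHC class II genes are known for a shared set of elements that bind RFX and NF-Y and recruit the class II transactivator, and they are printed because the 8 tested class II genes all had a log2 fold change above 0. The letters ATTGG, the core of the Y box to which NF-Y binds, were searched on the coding strand of RefSeq promoters (GRCm38.p6, from 250 bases before to 50 after the start of the gene). Of the 8 tested H2 class II genes, 7, all but *H2-Ab1*, had a promoter in the table and 6 of these held the letters. Among the promoters of 27025 genes, 37.9% held ATTGG or its reverse complement on the coding strand. A match describes the letters and is not evidence of binding. The stretches below run from 60 bases before the letters to 20 after, for the genes whose groups did not overlap, with the letters in capitals. That of *H2-Aa* is chr17:34287847-34287931 on the minus strand, that of *H2-Eb1* chr17:34305748-34305832 on the plus strand, and that of *H2-DMb2* chr17:34145099-34145183 on the plus strand.
H2-Aa: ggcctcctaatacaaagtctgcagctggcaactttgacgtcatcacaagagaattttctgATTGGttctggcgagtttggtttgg
H2-Eb1: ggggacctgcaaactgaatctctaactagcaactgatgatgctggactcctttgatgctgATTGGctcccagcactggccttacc
H2-DMb2: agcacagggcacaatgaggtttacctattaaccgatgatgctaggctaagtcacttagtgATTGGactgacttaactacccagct

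In gene families of protein synthesis and energy supply, no gene was called and most fold changes were small and below 0. Of 78 tested genes of cytosolic ribosomal proteins, 77 had a log2 fold change below 0, 30 (38.5%, against 8.19% of all tested genes) were without overlap and lower, 0 were without overlap and higher, and 0 were called (limma; 32 with an unadjusted p under 0.05). Their median log2 fold change was −0.20. *Rpl3*, a protein of the large subunit, was at 1625, 1524 and 1490.2 FPKM in WT and 1064, 1145 and 1193 FPKM in *Sema6d*-/- libraries (adjusted p = 0.131). *Rps9*, a protein of the small subunit, was at 3014, 2766 and 2722 FPKM in WT and 2163, 2136 and 2324 FPKM in *Sema6d*-/- libraries (adjusted p = 0.17). In 30 genes of this family, as in these, the *Sema6d*-/- libraries were all below the WT libraries. Among 76 tested subunits of oxidative phosphorylation, 68 were below 0, 29 (38.2%) were without overlap and lower, 1 was without overlap and higher, 0 were called, and the median was −0.17. *Uqcrq*, a subunit of complex III, was at 530.5, 435 and 532 FPKM in WT and 349, 347 and 325 FPKM in *Sema6d*-/- libraries (adjusted p = 0.177). For 37 tested proteasome subunits the median was −0.15, with 9 (24.3%) without overlap and lower and 0 called.

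The size of these shifts depended on abundance. It was smaller with quantile normalization and hardly changed with median of ratios scaling. Over the 579 tested genes whose mean reached 200 FPKM, the median log2 fold change was −0.12, and it was −0.08 over the 457 of them outside the ribosomal and oxidative phosphorylation lists. It was 0.04 over the 3681 genes between 2 and 10 FPKM. With quantile normalization, which forces the libraries to a common distribution, the ribosomal median was −0.10 with 70 of 78 genes below 0, and the oxidative phosphorylation median was −0.11 with 58 of 76 below 0. With median of ratios scaling these medians were −0.20 with 77 of 78 genes below 0 and −0.17 with 68 of 76 below 0. Ribosomal protein FPKM summed to 148264, 131984 and 128969 in WT libraries and to 115332, 109877 and 127287 in those of *Sema6d*-/- mice, so that *Sema6d*-/- replicate 3 was close to the lowest WT library.

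No gene of the cell cycle list was called, and its members went in both directions. Of 32 tested cell cycle genes, 24 had a log2 fold change below 0, 8 (25.0%, against 8.19% of all tested genes) were without overlap and lower, 0 were without overlap and higher and 0 were called (limma; 9 with an unadjusted p under 0.05). The median was −0.25, the lowest of the lists with at least 5 tested genes, and −0.27 with quantile normalization. *Ccnd2*, *Cdk2*, *Cdk6*, *Cdt1*, *Mcm2* and *Aurkb* were among those above 0. *Cdc20*, the activator of the anaphase-promoting complex, was at 18.1, 10.2 and 8.14 FPKM in WT and 1.8, 5.13 and 4.33 FPKM in *Sema6d*-/- libraries (adjusted p = 0.324). *Birc5*, which encodes survivin of the chromosomal passenger complex, was at 18.2, 17.9 and 23.5 FPKM in WT and 8.16, 6.3 and 15.3 FPKM in *Sema6d*-/- libraries (adjusted p = 0.398). *Tk1*, the thymidine kinase of S phase, was at 24.9, 18.9 and 23.3 FPKM in WT and 13.1, 15.1 and 10.7 FPKM in *Sema6d*-/- libraries (adjusted p = 0.348). Each of these genes was above all *Sema6d*-/- values in all WT libraries.

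The list of actin and small GTPase genes, which also holds *Sh3bgrl3* and its paralogs, had a median of −0.11, which was −0.03 with quantile normalization. Of its 38 tested genes, 9 (23.7%, against 8.19% of all tested genes) were without overlap and lower, 1 was without overlap and higher, and 1, *Sh3bgrl3* itself, was called. *Capg*, which caps actin filaments, was at 518, 495 and 579 FPKM in WT and 339, 355 and 269.6 FPKM in *Sema6d*-/- ILC2s (−0.73 on the log2 scale, adjusted p = 0.131, limma). *Actb*, the cytoplasmic actin, was at 924, 862 and 968 FPKM in WT and 777, 756 and 683 FPKM in *Sema6d*-/- ILC2s (adjusted p = 0.348). *Cap1* and *Eps8*, described above, act on actin too and rose.

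The list for NF-kB and MAP kinase signalling downstream of IL-33 holds feedback inhibitors and also NF-kB subunits and activators such as *Nfkb1*, *Rela*, *Myd88* and *Traf6*. Of its 30 tested genes, 25 had a log2 fold change above 0, 6 (20%, against 6.99% of all tested genes) were without overlap and higher, 1 was without overlap and lower, 0 were called (limma; 9 with an unadjusted p under 0.05), and the median was 0.17. *Dusp2*, a phosphatase of MAP kinases in the nucleus, was at 20.2, 22.5 and 16.3 FPKM in WT and 33.2, 38.1 and 55.4 FPKM in *Sema6d*-/- ILC2s (adjusted p = 0.228). *Dusp10*, a phosphatase of JNK and p38, was at 41.8, 48.2 and 40.5 FPKM in WT and 56.5, 63.1 and 70.1 FPKM in *Sema6d*-/- ILC2s (adjusted p = 0.375). *Zfp36*, which promotes the decay of cytokine mRNAs, was at 529, 442 and 361 FPKM in WT and 584, 539.8 and 677 FPKM in *Sema6d*-/- ILC2s (adjusted p = 0.44). The groups were apart but close in *Zfp36*, and *Nfkbia*, the most abundant gene of the list, overlapped. *Dusp2* lies within 5 Mb of *Sema6d*. Under PBS the median of the list was −0.13.

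The Gimap GTPases, which support the survival of resting lymphocytes, had a median of 0.48 over 8 tested genes, with 4 (50.0%, against 6.99% of all tested genes) without overlap and higher, 0 lower (8.19% of all) and 0 called (limma; 3 with an unadjusted p under 0.05). *Gimap6* was at 102, 102 and 85.1 FPKM in WT and 143, 149 and 180.2 FPKM in *Sema6d*-/- ILC2s (adjusted p = 0.177). Under PBS its groups did not overlap either, at 255, 208 and 191 FPKM in WT and 356, 359.8 and 389 FPKM in *Sema6d*-/- libraries. *Gimap8* was at 11.2, 6.93 and 9.02 FPKM in WT and 19.1, 14.8 and 19.6 FPKM in *Sema6d*-/- ILC2s under IL-33 (adjusted p = 0.312). Under PBS its mean was lower in *Sema6d*-/- libraries, with 31.8, 51.2 and 40.5 FPKM in WT and 16.6, 20.6 and 36.4 FPKM in *Sema6d*-/- libraries. The family lies in a cluster on chromosome 6, so its genes are neighbours and not independent.

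**Figure D4:**
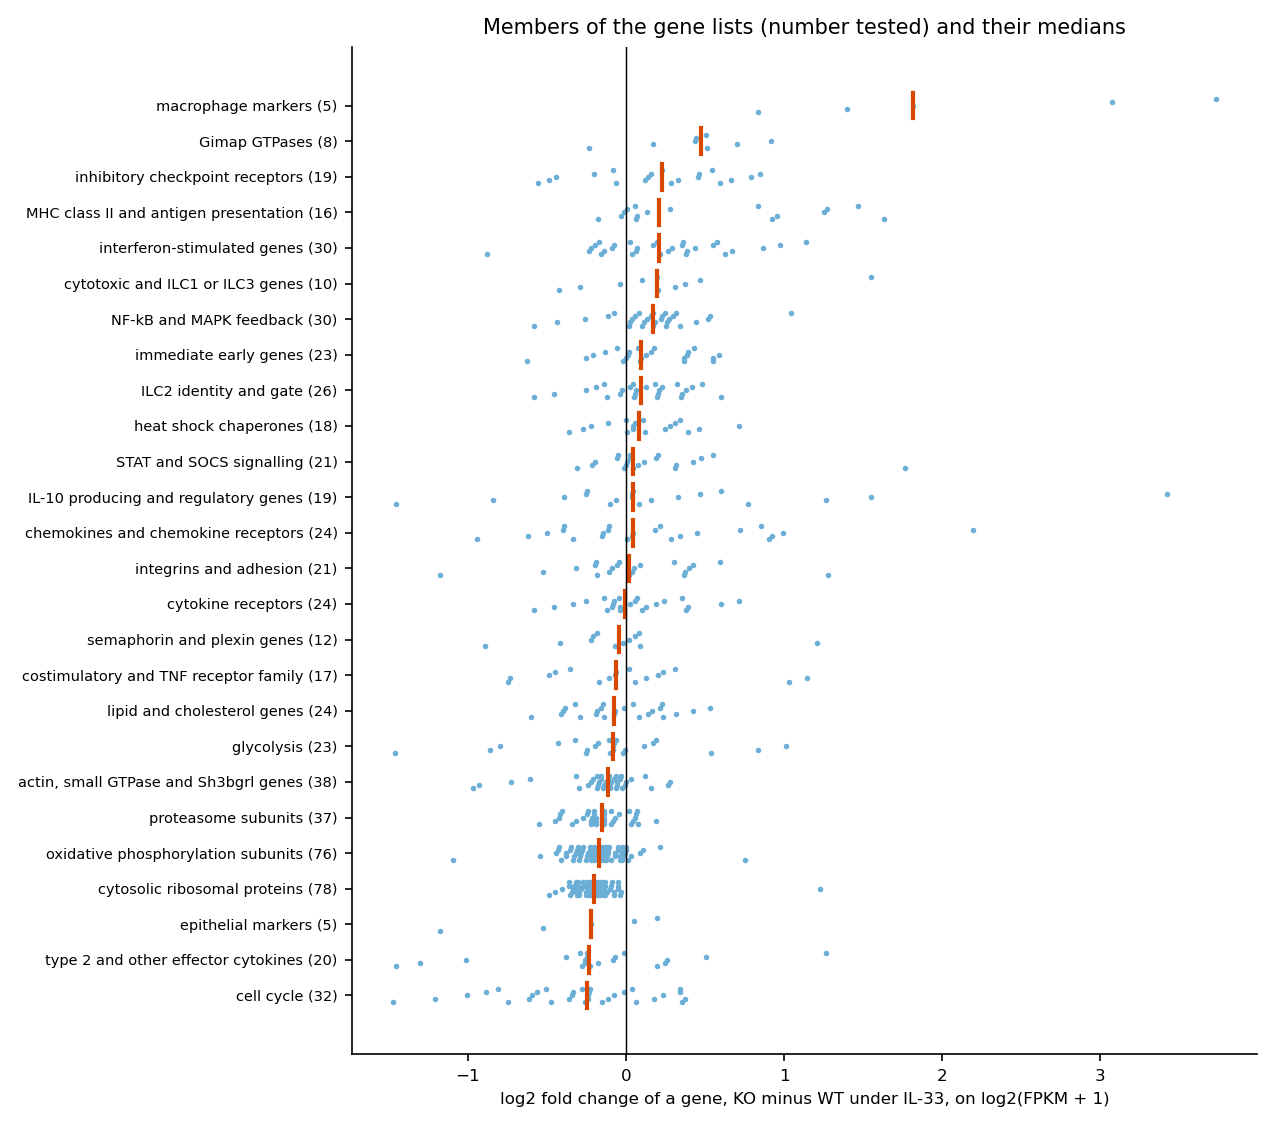
Log2 fold change under IL-33 (*Sema6d*-/- minus WT) of each tested member of the gene lists with at least 5 tested genes (blue points, spread vertically only for legibility) and the median of each list (orange bars), with the number tested in parentheses. Macrophage markers passed the filter only through the *Sema6d*-/- libraries, so their place is no finding, while ribosomal, oxidative phosphorylation and cell cycle genes lie mostly below 0.

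In lists of receptors and secreted factors, 0 genes were called. Of 19 tested genes in the list of inhibitory receptors, which also holds ligands, the transcription factors *Tox*, *Tox2* and *Prdm1* and the enzyme gene *Nt5e*, 3 (15.8%, against 6.99% of all tested genes) were without overlap and higher and 2 (10.5%, against 8.19%) lower (median 0.23; limma, 4 with an unadjusted p under 0.05). *Cd274*, which encodes PD-L1, was at 18.7, 17.5 and 27.8 FPKM in WT and 40.1, 32.8 and 43.0 FPKM in *Sema6d*-/- ILC2s (adjusted p = 0.312). *Cd96*, a receptor of nectin family ligands, was at 132, 157 and 105 FPKM in WT and 90.8, 81.1 and 92.1 FPKM in *Sema6d*-/- ILC2s (adjusted p = 0.38). Both genes were without overlap, in opposite directions. Among 17 tested costimulatory genes, 2 (11.8%) were without overlap and higher and 3 (17.6%) lower. *Cd2*, an adhesion receptor of lymphocytes, was at 7.79, 11.6 and 6.79 FPKM in WT and 14.9, 28.2 and 19.0 FPKM in *Sema6d*-/- ILC2s (adjusted p = 0.312). Of 20 tested type 2 and other effector cytokines, 15 (75%, against 50.0% of all tested genes) had a log2 fold change below 0. Without overlap and lower were 2 (10%, against 8.19%), near the share of all tested genes, and 0 were without overlap and higher (against 6.99%). The median of the 20 cytokines, −0.24, was −0.07 without WT replicate 2 and −0.12 without WT replicate 3.

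Some genes of trafficking, interferon response and metabolism are given as examples, and others of their lists were without overlap too, such as *Cxcl10*, *Gpr183* and *Itgav* on the higher and *Cd82* and *Cdh1* on the lower side. *Cxcr6*, a chemokine receptor that holds lymphocytes in the lung, was at 1976, 2264 and 2392 FPKM in WT and 1543, 1809 and 1663 FPKM in *Sema6d*-/- ILC2s (−0.40 on the log2 scale, adjusted p = 0.263, limma). *S1pr1*, the receptor by which lymphocytes leave tissues, was at 16.1, 7.99 and 19.0 FPKM in WT and 27.1, 26.0 and 23.2 FPKM in *Sema6d*-/- ILC2s (0.86 on the log2 scale, adjusted p = 0.453). *Cd69*, which opposes S1PR1 at the cell surface, was at 1454, 1461 and 1603 FPKM in WT and 1753, 2044 and 2166 FPKM in *Sema6d*-/- ILC2s (0.40 on the log2 scale, adjusted p = 0.263). Each was without overlap, with *Cxcr6* lower and *S1pr1* and *Cd69* higher in *Sema6d*-/- ILC2s. *Cd69* went the other way under PBS, at 2973, 3318 and 2682 FPKM in WT and 2299.5, 2061 and 2251 FPKM in *Sema6d*-/- libraries. *Gbp2*, a GTPase induced by interferon, was at 26.6, 26.5 and 25.9 FPKM in WT and 12.4, 17.1 and 12.5 FPKM in *Sema6d*-/- ILC2s (adjusted p = 0.23), whereas the 30 tested interferon-stimulated genes had a median of 0.21 with 2 (6.67%, against 6.99% of all tested genes) without overlap and higher and 1 (3.33%, against 8.19%) lower. *Slc2a3*, a glucose transporter, was at 8.4, 8.23 and 11.8 FPKM in WT and 25.5, 18.9 and 16.4 FPKM in *Sema6d*-/- ILC2s (adjusted p = 0.278), while 23 tested glycolysis genes had a median of −0.08, with 17 below 0, 2 (8.70%, against 6.99% of all tested genes) without overlap and higher and 4 (17.4%, against 8.19%) lower.

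The other lists had no called member, and their counts stand against 6.99% of all tested genes without overlap and higher and 8.19% without overlap and lower. Of 21 tested integrin and adhesion genes, 4 (19.0%) were without overlap and higher and 5 (23.8%) lower, with a median of 0.02. Of 24 cytokine receptors, 1 was without overlap and higher and 5 (20.8%) lower, with a median of −0.0059. Of 21 STAT and SOCS genes, 4 (19.0%) were without overlap and higher and 0 lower, with a median of 0.05. Among 24 chemokines and their receptors, 4 (16.7%) were without overlap and higher and 1 lower, with a median of 0.04. For 23 immediate early genes these values were 3 higher, 1 lower and a median of 0.10, and for 18 heat shock chaperones 0, 1 and 0.08. For 24 lipid and cholesterol genes they were 1, 1 and −0.07, and for the 10 cytotoxic, ILC1 and ILC3 genes 0, 2 and 0.20. The 19 regulatory genes around IL-10 went both ways, with log2 fold changes from −1.45 to 3.42, a median of 0.04, 2 without overlap and higher and 1 lower. The median of the 17 costimulatory genes was −0.06.

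Markers of other cells that the gate could hold were mostly at or near 0. Of 8 eosinophil markers 0 were tested. The most abundant, *Ccr3*, was at 1.95 FPKM at most, and *Epx*, *Prg2* and *Prg3*, which encode their granule proteins, were listed at 0 in all 6 libraries. Neutrophil markers were led by *Cxcr2*, the only 1 tested, at 5.45 to 8.92 FPKM with overlap. *Retnlg* reached 3.79 FPKM in *Sema6d*-/- replicate 2, and the neutrophil genes *S100a8* and *S100a9* were listed at 0 in all 6 libraries. T cell markers summed to 337, 296 and 343 FPKM in WT and 224, 299 and 265 FPKM in *Sema6d*-/- libraries, most of it *Cd3g*, while *Cd4* was listed at 0 and *Cd3e* was at 4.58 FPKM at most. B cell markers were led by *Cd79b*, at 26.8, 14.4 and 11.97 FPKM in WT and 2.76, 18.4 and 4.67 FPKM in *Sema6d*-/- libraries, with *Ms4a1* and *Pax5* listed at 0. Epithelial markers were led by *Hopx*, at 29.4 to 42.4 FPKM with overlap. *Sftpc*, the surfactant gene of alveolar epithelium, was at 8.56, 3.55 and 1.03 FPKM in WT and 0, 0 and 97.2 FPKM in *Sema6d*-/- libraries. *Sema6d*-/- replicate 3 thus had the most of it. NK cell and mesenchymal markers had 0 tested genes, with summed levels of at most 4.78 and 6.20 FPKM in a library. Mast cell and basophil markers were led by *Cpa3*, at 17.8 to 40.0 FPKM with overlap, and *Mcpt8* was listed at 0. Endothelial markers were led by *Pecam1*, at 10.6 to 20.4 FPKM with overlap, and *Cdh5* was listed at 0. The hemoglobin genes *Hba-a1* and *Hba-a2* reached 5.37 FPKM at most. The part of these cells in the differences between the genotypes was not tested beyond the values given.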

How the data were processed

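RNA of sorted lung ILC2s was sequenced in 12 libraries, 3 in each of 4 groups, which were assigned by their labels. The authors aligned reads of single ends to mm10, which is the build GRCm38 of the mouse, and deposited FPKM values, 1 per gene symbol and library. The submitters' processing notes name TopHat2 2.1.1, Bowtie2 and Cuffdiff 2.2.1, while the study's methods name other versions and Cuffnorm. They also name different library kits, SMART-Seq HT with Nextera in the labels and a stranded kit in the methods.

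Genes that averaged 2 FPKM or more over the 6 IL-33 libraries were tested with limma 3.58.1 in R 4.3.3 (lmFit, eBayes with trend) on log2(FPKM + 1), with only these libraries in the model, 4 residual degrees of freedom, two-sided p-values, Benjamini-Hochberg adjustment over all tested genes and a threshold of 0.05. The interaction used all 12 libraries, and the PBS libraries were also fitted alone. No overlap means that all 3 values of a group lie above all 3 of the other. Fits and relative depth were tested on simulated data, the depth with whole reads only. Tables were made with Python 3.11.15, pandas 2.3.3 and numpy 2.4.6.

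The genes and lists were chosen with earlier results of these data known. Named genes are *Sema6d* and plexins and the called genes, up to 12 in each direction. The rest of each 12 was filled by the largest fold changes among genes with an unadjusted p under 0.01 and no overlap. In each list, up to 4 genes without overlap by smallest p and the most abundant could be named. For other cell types these were the most abundant marker and defining markers at 0. Not every gene that met these rules is named, and in some lists no gene is. Genes near *Sema6d*, genes that overlap or resemble a called gene, *Ciita*, other markers and the promoters were named after their values were seen, as were the windows of 20 Mb and the fit of the PBS libraries alone. Lists were described by counts and medians, without a test. Positions are from GENCODE vM21 and, for 306 symbols, RefSeq. The alternatives were another pseudocount, filters, scalings, weights, no trend, the replicate number as a block, all libraries in the fit, a minimum fold change and leaving out each library. No test was run on reads, since the depth of FPKM is known only in relative terms. No mitochondrially encoded gene matched the symbols searched. A result of the interaction is not reported here.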

Additional observations from a re-analysis of the deposited data

Results flagged for a closer look

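In 3 genes the difference between the genotypes differed between IL-33 and PBS by a test of the interaction across all 12 libraries (limma, 3 of 9142 genes with an adjusted p under 0.05, 0.0328%; 530 with an unadjusted p under 0.05). For *Gm5547* the interaction was −5.61 on the log2 scale (adjusted p = 0.0105), with 43.8, 39.4 and 56.5 FPKM in WT and 15.7, 23.2 and 43.8 FPKM in *Sema6d*-/- libraries under IL-33, and under PBS 0 in the 3 WT libraries and 23.7, 18.1 and 41.5 FPKM in *Sema6d*-/- libraries. For *Mterf2*, a mitochondrial transcription factor, it was 4.06 (adjusted p = 0.0494). *Mterf2* was at 1.29, 1.31 and 1.98 FPKM in WT and 4.82, 3.07 and 2.64 FPKM in *Sema6d*-/- libraries under IL-33 and, under PBS, at 8.15, 10.2 and 7.2 FPKM in WT and listed at 0 in the 3 *Sema6d*-/- libraries. In both genes a whole PBS group is listed at 0. PBS libraries listed 617 to 1573 of the tested genes at 0, against 83 to 126 in IL-33 libraries, and the part of this in the interaction was not tested. Exons of *Mterf2* overlap those of *Tmem263* on the other strand.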

How the results depend on the processing

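The number of called genes under IL-33, 16 in the fit described, was 9 with a pseudocount of 0.1, 10 with a filter at a mean of 10 FPKM, 10 with quantile normalization, 5 with a minimum log2 fold change of 0.5 and 1 with all 12 libraries in the fit. It was 0 without a filter (limma, 1103 genes with an unadjusted p under 0.05) and 0 with eBayes without trend (744 such genes). With a filter at a mean of 0.5 FPKM, median of ratios scaling and array weights it was 17, 15 and 16. Leaving out a library gave 2 to 13 called genes, 2 without WT replicate 1 or 2, 4 without *Sema6d*-/- replicate 1 and 10 without *Sema6d*-/- replicate 2. With *Sema6d*-/- replicate 1 as the only *Sema6d*-/- library, an alternative chosen after seeing the data in which the lone library is assumed to vary like the others, 21 genes were called, 1 of them among the 16. With the replicate number as a block, 3 genes were called, all among the 16; the numbers do not pair the samples, since the correlations of same-numbered libraries' deviations from their group means were −0.055, 0.024 and 0.030. *Sema6d* kept its direction and stayed above the threshold in all 18 alternatives, from −1.11 to −0.70 when a library was left out. Interaction calls were 3 as described, 1 with the replicate block and 5 with a pseudocount of 0.1. Reversed values were −1.27 for *Chil3*, 0.020 for *Sema4a*, −0.085 for *Nrp1* and −0.076 for *Plxnc1* with *Sema6d*-/- replicate 1 alone, −0.032 for *Nrp1* without *Sema6d*-/- replicate 2, 0.11 for *Plxna1* without *Sema6d*-/- replicate 1 and −0.030 for *Plxnc1* without WT replicate 1. When a library was left out, *Nrp1* ranged from −0.032 to 0.13, *Plxna1* from −0.42 to 0.11 and *Plxnc1* from −0.030 to 0.25. FPKM carry no read totals, so no counting error is given and low values rest on an unknown number of reads.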
